A study of Mus musculus with 12 samples.

Results

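The hemidesmosome, basal integrin and laminin genes examined here are Col17a1, Itga6, Itgb4, Itgb1, Itga3, Lama3, Lamb3 and Lama5. They were found by their platform gene symbol, and these 8 genes are 8 of the 16896 genes named on the array. Each was represented by 1 probe, and all 8 probes had a value on all 12 arrays. The genes were chosen for their role in anchoring basal keratinocytes to the basement membrane, with earlier results of these data known.

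RNA was taken from tail skin papillomas of 6 mice, each a separate individual. In 3 mice the epidermis lacked both Fos alleles (Fos-deficient, specimens 6, 8 and 9), and in 3 mice both Fos alleles were floxed and active (Fos-floxed, specimens 2, 3 and 5). All 6 mice, Fos-floxed ones included, expressed activated Sos from the keratin 5 promoter, which acts in basal keratinocytes, so that the Ras-Raf pathway was constantly on. Their genetic background was a mix of strains that included C57BL/6 and CBA. The Cre line and the age of the animals are not stated in the labels. The deletion is restricted to the epidermis, so stroma, vessels and blood cells in a papilloma keep Fos. Papilloma RNA was set on 2 arrays per specimen, once in Cy5 and once in Cy3, against a reference RNA pooled from mouse cell lines. Values are log2 ratios of papilloma over reference, a specimen value is the mean of its 2 arrays, and a difference is the Fos-deficient mean minus the Fos-floxed mean.

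Hemidesmosomes are the rivets by which basal keratinocytes hold on to the basement membrane. In them the integrin of the alpha6 and beta4 chains and the transmembrane collagen XVII join the keratin filaments inside the cell to laminin-332 outside it. Laminin-332, which contains the alpha3 and beta3 chains, is secreted by the keratinocytes themselves. Integrin alpha3 pairs with beta1 and also binds this laminin, at adhesions linked to actin. Laminin alpha5 belongs to other laminins of the same basement membrane. Fos is a subunit of AP-1, a transcription factor known to act on many keratinocyte genes.

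The promoter windows of 3 members are shown because Col17a1 and Itgb1 had 2 of the 3 largest differences between the genotypes, whereas that of Lama5 was close to 0. The windows run from 250 bases before to 50 bases after the start site, are from RefSeq on build GRCm38.p6, and are written 5′ to 3′ on the strand of the gene. The deposited table names no build. Capitals mark TATAAA in Col17a1 and GGGCGG or its reverse complement in Itgb1 and Lama5.
Col17a1 promoter, chr19:47691993-47692292, minus strand: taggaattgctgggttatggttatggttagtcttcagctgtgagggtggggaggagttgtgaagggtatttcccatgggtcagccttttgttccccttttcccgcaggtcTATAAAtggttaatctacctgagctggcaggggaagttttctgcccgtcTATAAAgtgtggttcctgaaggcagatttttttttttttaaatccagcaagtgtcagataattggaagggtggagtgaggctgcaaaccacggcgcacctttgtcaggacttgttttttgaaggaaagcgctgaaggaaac
Itgb1 promoter, chr8:128685404-128685703, plus strand: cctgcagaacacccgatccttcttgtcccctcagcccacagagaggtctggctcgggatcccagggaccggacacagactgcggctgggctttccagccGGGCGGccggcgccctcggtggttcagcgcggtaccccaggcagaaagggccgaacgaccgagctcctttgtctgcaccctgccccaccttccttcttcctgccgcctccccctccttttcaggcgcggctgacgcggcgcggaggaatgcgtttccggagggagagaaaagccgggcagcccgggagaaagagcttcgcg
Lama5 promoter, chr2:180225810-180226109, minus strand: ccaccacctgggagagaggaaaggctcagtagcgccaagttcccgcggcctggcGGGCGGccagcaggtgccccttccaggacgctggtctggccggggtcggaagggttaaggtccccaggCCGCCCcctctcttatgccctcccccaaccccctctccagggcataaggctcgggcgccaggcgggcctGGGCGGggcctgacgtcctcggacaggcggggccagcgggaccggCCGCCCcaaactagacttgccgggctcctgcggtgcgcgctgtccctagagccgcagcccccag

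Windows were searched for 5 of the 8 members, as 7 start sites. Itga6 and Itgb4 had no window and Lama3 was left out, so the counts below do not cover these genes. The letters searched on both strands were TGAGTCA, the AP-1 motif, TGACGTCA, the CRE motif, GGGCGG and TATAAA. None of the 7 windows held TGAGTCA or TGACGTCA, which occur in 5.2% and 1.79% of the 32851 windows of the same length. GGGCGG was in 4 of the 7 windows and in 35.7% of all windows. The Lama5 window held 4 copies and the Itgb1 window 1, at position -151. TATAAA occurred in 1 of the 7 windows, that of Col17a1, at positions -140 and -91, and in 13.6% of all windows. The motifs do not overlap each other in the windows shown. These are matches of letters in a short window and no evidence of binding or its absence.

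Fos and the tissue were checked first. The log2 ratio of Fos was -4.01, -4.43 and -3.91 in Fos-deficient specimens 6, 8 and 9, against -1.30, -0.56 and -1.56 in Fos-floxed specimens 2, 3 and 5. Every Fos-deficient array lay below every Fos-floxed array. The position of the Fos probe relative to the deletion is unknown, so this is a limited check of the genotype. Of 14 keratinocyte genes 13 were tested, and their mean log2 ratio lay between 3.80 and 4.13 in Fos-deficient and between 4.10 and 4.26 in Fos-floxed specimens. Each of the 66 array pairs had a positive correlation over probes (r from 0.705 to 0.963), although dyes were exchanged, so the ratios had already been turned one way. Papilloma over reference is the likely direction, read from the high values of the keratinocyte genes. An array held values for 20811 to 26490 of 37632 probes.

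Across the array, limma called 0 of 18861 tested features at an adjusted p under 0.05 (0% called), with 7.31% lower and 4.55% higher at an unadjusted p under 0.05. None of the differences below is therefore called a change. All 8 members entered this test. At an unadjusted p under 0.05 in limma, 6 of the 8 were lower in Fos-deficient papillomas and 0 higher, beside 7.31% of all features lower. The 6 were Col17a1, Itga6, Itgb4, Itgb1, Lama3 and Lamb3. Their fold differences ran from 2.11 for Itgb4 to 2.72 for Col17a1, if the logs are to base 2. The difference was -1 or below for 6 members, beside 1.74% of all features. The median difference of the 8 members was -1.38, against 0.025 for all features. For the same 6 genes all 3 Fos-deficient specimens lay below all 3 Fos-floxed specimens, which held for 9.09% of complete features. Without Fos-floxed specimen 2, 3 of the 8 were lower at an unadjusted p under 0.05, beside 4.17% of features. These are whole papillomas, in which fewer cells of a type and less RNA per cell cannot be told apart.

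**Figure D1:**
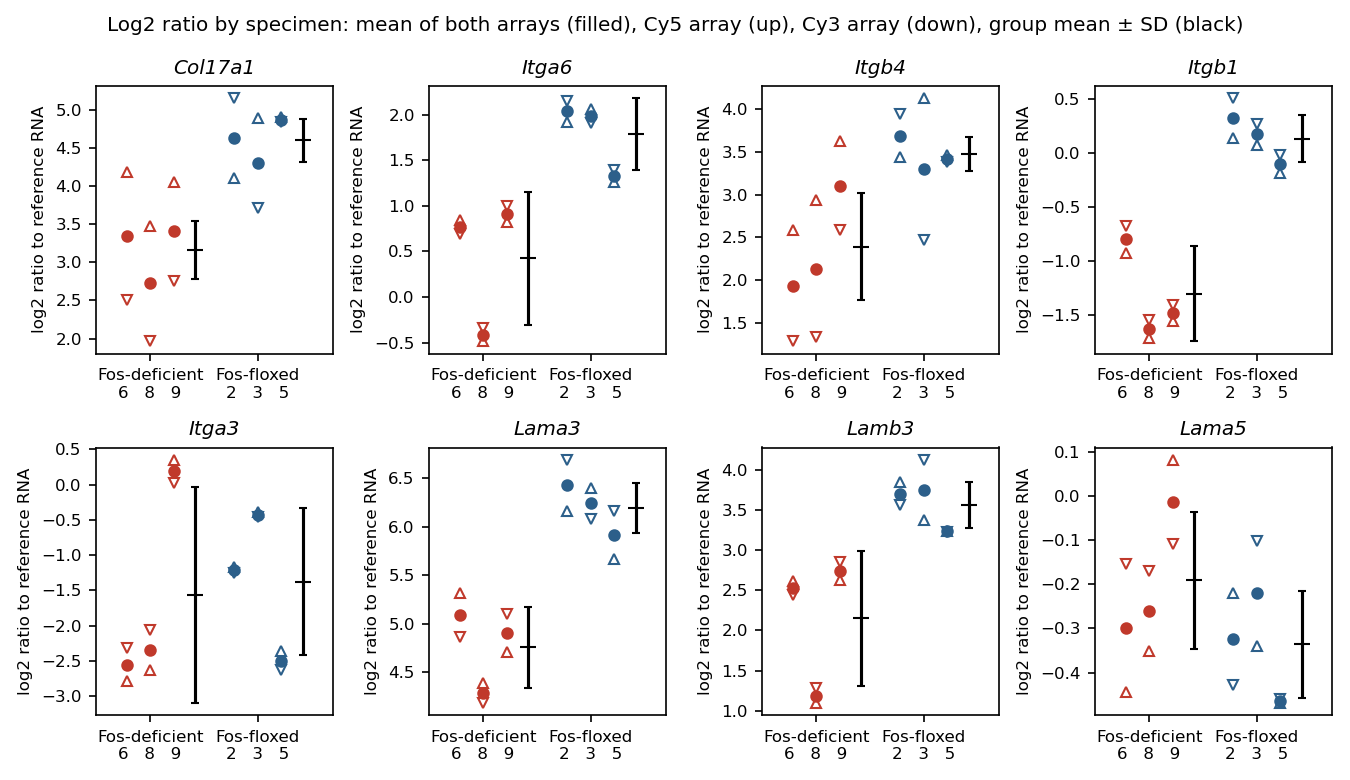
Log2 ratio of papilloma over reference RNA for the 8 genes, 1 panel per gene, with Fos-deficient specimens 6, 8 and 9 in red and Fos-floxed specimens 2, 3 and 5 in blue. Filled circles are specimen means, open triangles are single arrays (up for papilloma in Cy5, down for Cy3), and black marks are group means ± SD (n = 3). The red and blue circles are separate for 6 genes and overlap for Itga3 and Lama5.

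The members that are transmembrane parts of the hemidesmosome lay lower in Fos-deficient papillomas. Col17a1, the collagen XVII of the hemidesmosome, had log2 ratios of 3.35, 2.72 and 3.41 in Fos-deficient specimens 6, 8 and 9, against 4.63, 4.30 and 4.87 in Fos-floxed specimens 2, 3 and 5. The groups did not overlap, and specimen 8 was the lowest. The difference was -1.44 (SE 0.24, 95% interval -2.03 to -0.85), with an adjusted p of 0.198 in limma. An exact two-sided permutation test over specimens gave p = 0.1 for each of these 6 genes, and this design allows no smaller p.

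Itgb4 encodes integrin beta4, whose long cytoplasmic tail binds plectin. The log2 ratios of Itgb4 were 1.94, 2.14 and 3.10 in Fos-deficient specimens 6, 8 and 9, against 3.69, 3.30 and 3.42 in Fos-floxed specimens 2, 3 and 5. The groups were 0.199 apart at their nearest specimens, 9 and 3, the narrowest gap of the 6 genes. The difference was -1.08 (SE 0.32), with an adjusted p of 0.305 in limma.

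Itga6 encodes integrin alpha6, the partner of beta4 in the hemidesmosome. Its log2 ratios were 0.77, -0.41 and 0.91 in Fos-deficient specimens 6, 8 and 9, against 2.04, 1.99 and 1.33 in Fos-floxed specimens 2, 3 and 5. Specimen 8 lay more than 1 log2 unit below the other Fos-deficient specimens. The difference was -1.36 (SE 0.41), with an adjusted p of 0.305 in limma. Without specimen 8 it was -0.94, the value nearest to 0 among the 16 alternatives.

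The chains of the integrin of actin-linked adhesions come next. Itgb1 encodes integrin beta1, the partner of many alpha chains. Fos-deficient specimens 6, 8 and 9 had Itgb1 log2 ratios of -0.80, -1.63 and -1.48, against 0.32, 0.17 and -0.11 in Fos-floxed specimens 2, 3 and 5. The difference was -1.43 (SE 0.25, 95% interval -2.05 to -0.82), with an adjusted p of 0.210 in limma. Both arrays of each specimen gave nearly the same value, with the Cy5 array 0.142 to 0.366 lower in each.

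Itga3, the alpha3 chain that pairs with beta1, varied more within the groups than between them. Its log2 ratios were -2.55, -2.34 and 0.19 in Fos-deficient specimens 6, 8 and 9, against -1.21, -0.43 and -2.50 in Fos-floxed specimens 2, 3 and 5. Specimens 6, 8 and 5 were low and specimen 9 was high, in both dye orientations. The difference of -0.19 had a 95% interval of -2.43 to 2.05, which does not exclude a difference as large as that of Itgb1. Its sign turned when specimen 6, 8 or 3 was left out, with values of 0.30, 0.20 and 0.28.

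Of the laminin genes, Lama3 and Lamb3 lay lower in Fos-deficient papillomas and Lama5 lay near the same level in both groups. Lama3 encodes the alpha3 chain of laminin-332. Lama3 log2 ratios were 5.09, 4.28 and 4.90 in Fos-deficient specimens 6, 8 and 9, against 6.43, 6.24 and 5.91 in Fos-floxed specimens 2, 3 and 5. It thus stood far above the reference RNA in both groups. The difference was -1.44 (SE 0.25, 95% interval -2.05 to -0.82), with an adjusted p of 0.210 in limma.

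Lamb3 encodes the beta3 chain of laminin-332. Its log2 ratios were 2.53, 1.19 and 2.74 in Fos-deficient specimens 6, 8 and 9, against 3.70, 3.75 and 3.23 in Fos-floxed specimens 2, 3 and 5. As for Itga6, specimen 8 was lowest by more than 1 log2 unit. The difference was -1.41 (SE 0.44), with an adjusted p of 0.316 in limma, and -0.93 without specimen 8.

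Lama5 encodes the alpha5 chain, found in laminins of most basement membranes. Lama5 log2 ratios were -0.30, -0.26 and -0.01 in Fos-deficient specimens 6, 8 and 9, against -0.32, -0.22 and -0.46 in Fos-floxed specimens 2, 3 and 5. The groups overlapped. The difference of 0.15 had a 95% interval of -0.14 to 0.43, so its interval does not reach the differences of Lama3 and Lamb3.

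The size of the difference varied with the dye orientation, most for Col17a1 and Itgb4. With the papilloma in Cy5 alone, Col17a1 differed by -0.72 and Itgb4 by -0.63, and in Cy3 alone by -2.16 and -1.53. Itga6, Itgb1, Lamb3 and Lama5 moved by less than 0.1 between the orientations. Lama3 gave -1.27 in Cy5 and -1.60 in Cy3, and Itga3 -0.38 and -0.00051. With an unadjusted p under 0.05 in limma, 4 members were lower in Cy5 alone, beside 7.26% of features, and 6 in Cy3 alone, beside 7.94%. All 6 arrays of the Fos-deficient group lay below all 6 of the Fos-floxed group for Itga6, Itgb1, Lama3 and Lamb3, 4 of 8 members, beside 2.46% of features.

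**Figure D2:**
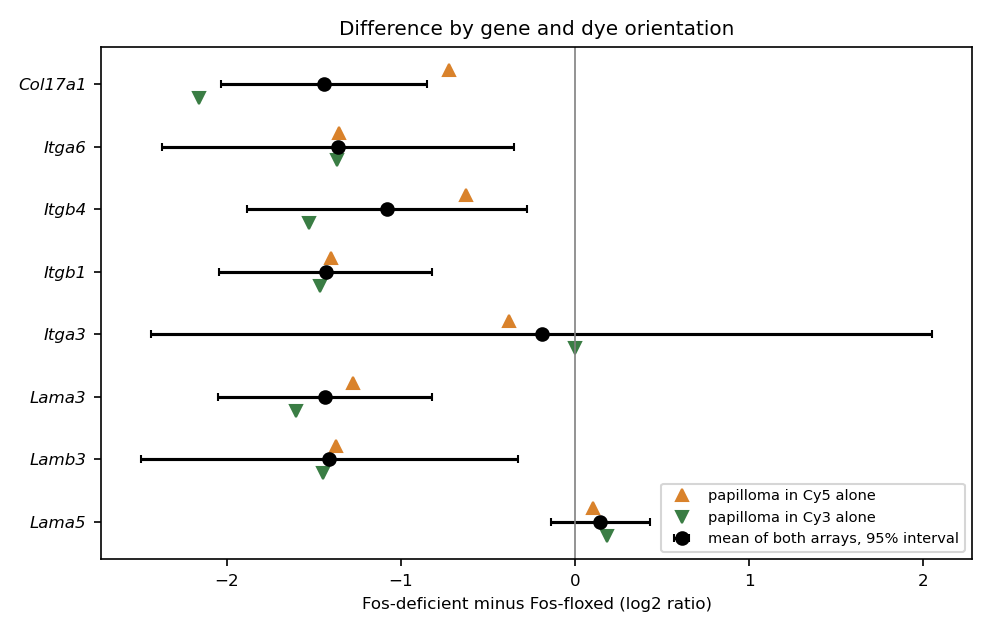
Difference in log2 ratio, Fos-deficient minus Fos-floxed, for each of the 8 genes. Black circles with bars are the difference of specimen means with its 95% interval from limma, and triangles are the arrays with the papilloma in Cy5 alone (up) or Cy3 alone (down). The orientations lie furthest apart for Col17a1, at -0.72 and -2.16.

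The 2 arrays of a specimen disagreed for these 2 genes in 4 specimens by more than 1 log2 unit in the same direction. For Col17a1 the Cy5 array exceeded the Cy3 array by 1.69, 1.52 and 1.30 in Fos-deficient specimens 6, 8 and 9. In Fos-floxed specimens 2, 3 and 5 this difference was -1.05, 1.17 and 0.070. For Itgb4 it was 1.30, 1.60 and 1.04 in Fos-deficient specimens 6, 8 and 9, against -0.50, 1.65 and 0.078 in Fos-floxed specimens 2, 3 and 5. In both genes specimen 3, although Fos-floxed, lay with or near the Fos-deficient specimens in this measure. The number of probes with a value also differed between the arrays of a specimen. The Cy5 array's number minus the Cy3 array's was 1923, 5218 and 2355 in Fos-deficient specimens 6, 8 and 9, against -2706, 3224 and -155 in Fos-floxed specimens 2, 3 and 5, with the same signs as for Col17a1 except in specimen 5. Its part in the disagreement was not tested.

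A test of whether the genotype difference depended on the dye called 0 of 18861 features in limma (0% called), and 9.99% had an unadjusted p under 0.05. Among the members 1 of 8, Col17a1, had an unadjusted p under 0.05. Its genotype difference in Cy5 minus that in Cy3 was 1.44 (SE 0.49), with an adjusted p of 0.490 in limma. For Itgb4 it was 0.90 (SE 0.50), with an adjusted p of 0.551. Without Fos-floxed specimen 3 limma called 800 of 20356 features (3.93%), Col17a1 and Itgb4 among them, with values of 1.99 and 1.52 and adjusted p of 0.0299 and 0.0288. Leaving out any other specimen called 0 features. With a specimen left out, features with 1 specimen in a group were tested too.

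**Figure D3:**
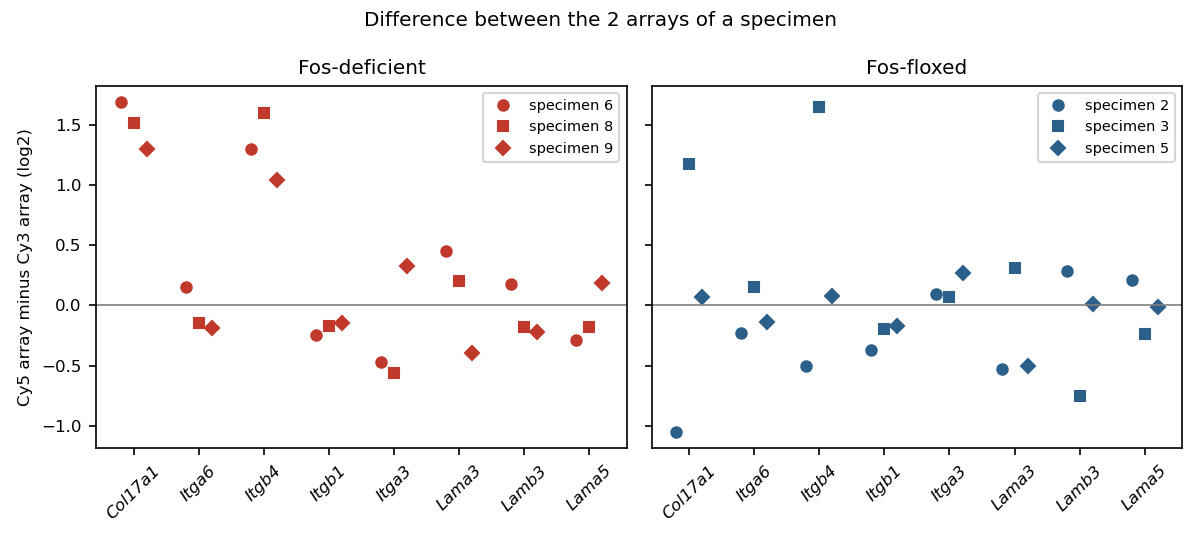
Log2 ratio on the Cy5 array minus that on the Cy3 array for each specimen and gene, with Fos-deficient specimens on the left and Fos-floxed specimens on the right. Col17a1 and Itgb4 lie above 1 in specimens 6, 8, 9 and 3, and every other gene lies between -0.75 and 0.45.

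The partners of these proteins inside the cell and in the dermis were spread around 0. Of 8 partners 7 were tested, and 0 of the gene values had an unadjusted p under 0.05 in either direction in limma. Their median difference was 0.13. Krt5 and Krt14, the basal keratins whose filaments attach to the hemidesmosome, differed by 0.15 (SE 0.09) and 0.13 (SE 0.17). The 2 probes of Krt5 disagreed, at -0.15 (SE 0.15) and 0.46 (SE 0.09). With probes as features in limma, the second probe had an unadjusted p of 0.00298 and an adjusted p of 0.215. Krt14 had log2 ratios of 5.13, 5.62 and 5.66 in Fos-deficient specimens 6, 8 and 9, against 5.21, 5.45 and 5.34 in Fos-floxed specimens 2, 3 and 5. Subtracting Krt14, which was chosen after its values were seen, lowers every gene's difference by 0.13, to -1.58 for Col17a1, and so adds no evidence on the members.

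Of the cytolinkers that join integrin beta4 and collagen XVII to keratin, Plec differed by 0.20 (SE 0.10) and Dst by -0.25 (SE 0.16). Probes of these genes disagreed, at 0.61 and -0.22 for Plec and between -0.58 and 0.26 for Dst. With probes as features in limma, the Plec probe at 0.61 had an unadjusted p of 0.017 and an adjusted p of 0.313. The Dst probe at -0.58 had an unadjusted p of 0.0456 and an adjusted p of 0.414 in that fit. Col7a1, the collagen of the anchoring fibrils, differed by -0.88 (SE 0.56). It had log2 ratios of 3.59, 2.59 and 4.80 in Fos-deficient specimens 6, 8 and 9, against 4.39, 4.90 and 4.33 in Fos-floxed specimens 2, 3 and 5, so the groups overlapped. Without specimen 9 it differed by -1.45 and without specimen 8 by -0.34. Cd151, a tetraspanin that binds integrins alpha3 and alpha6, was at 0.43 (SE 0.80), and Erbin, which binds integrin beta4, at 0.06 (SE 0.34).

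Other basement membrane genes were spread around 0. Of 24 tested, 2 were lower and 2 higher at an unadjusted p under 0.05 in limma, beside 7.31% and 4.55% of all features. The median difference was 0.05. Col15a1, a collagen of vessel and muscle basement membranes, differed by -0.62 (SE 0.16). Lamc1, the common laminin gamma chain, differed by -0.47 (SE 0.13, with 2 Fos-deficient specimens). Without specimen 6 the Lamc1 difference was -0.30, with specimen 9 the only Fos-deficient value. Lamb2, a laminin beta chain, was at 0.44 (SE 0.16) and Smoc1, a matricellular protein, at 0.86 (SE 0.33).

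Other integrin subunits were spread around 0 too. Of 13 tested, 0 were lower and 1 higher at an unadjusted p under 0.05 in limma, beside 7.31% and 4.55% of all features. The 1 was Itgb7, a leukocyte beta chain, at 0.72 (SE 0.23). The median difference of the list was 0.08. Itgav, an alpha chain of fibronectin and vitronectin receptors, differed by -0.42 (SE 0.20), with probes at 0.04 and -0.88. Without Fos-deficient specimen 9 it was -0.26. Itga1, a collagen receptor chain, was at -0.19 (SE 0.15), or -0.085 without that specimen, and Itga2b, a platelet chain, at 0.29 (SE 0.13, with 2 Fos-deficient specimens).

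Adaptors that couple integrins to actin lay slightly below 0. Of 30 tested, 21 had a difference below 0, beside 44.9% of all features. At an unadjusted p under 0.05 in limma 2 were lower and 0 higher, beside 7.31% and 4.55% of all features. The median was -0.16. Lims1 and Lims2, the PINCH adaptors, differed by -0.39 (SE 0.14) and -0.38 (SE 0.13). The probes of Lims1 lay between -0.56 and -0.081, and without Fos-deficient specimen 9 Lims1 was at -0.25. Flna, filamin A, which binds beta integrin tails, differed by -1.19 (SE 0.51), and Tns1, tensin 1, by 0.26 (SE 0.12), or 0.16 without specimen 9.

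Proteases and processing enzymes of the anchoring zone went both ways. Of 21 tested, 3 were lower and 1 higher at an unadjusted p under 0.05 in limma, beside 7.31% and 4.55% of all features. The median was 0.04. Mmp3 and Mmp10, the stromelysins, differed by -1.46 (SE 0.26) and -2.09 (SE 0.49). Adam10, a membrane sheddase, differed by -0.79 (SE 0.26), with its 3 probes between -1.29 and -0.52, and Tgm2, a crosslinking transglutaminase, by 0.87 (SE 0.31), or 0.54 without Fos-deficient specimen 6. In this fit over 6 specimens, none of the genes named in these lists had a limma adjusted p under 0.05.

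**Figure D4:**
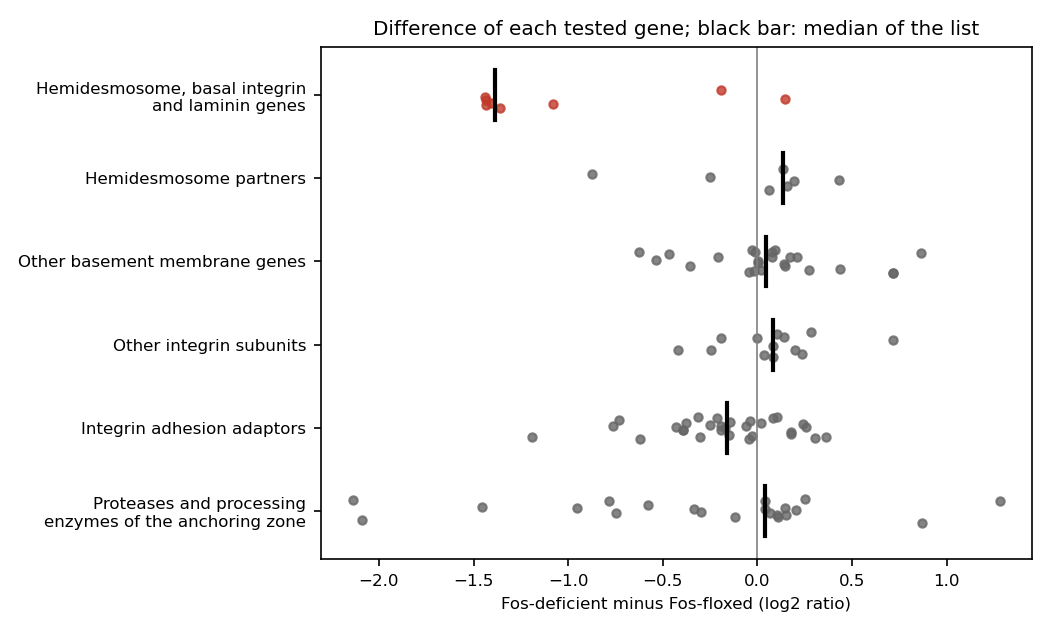
Difference in log2 ratio, Fos-deficient minus Fos-floxed, for every tested gene of the 8 members (red) and of 5 related gene lists (grey). Points are genes with vertical scatter for legibility, and black bars are list medians. The median of the 8 members is -1.38, and those of the other lists lie between -0.16 and 0.13.

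The members were also compared by their profile over specimens. With each gene centred on its own mean over the 6 specimens, Itga6 and Lamb3 were the nearest pair, with a root mean square distance of 0.101 log2 units. Itgb1 and Lama3 followed at 0.162. Itga3 was the most distant, with 0.935 to its nearest member Itgb4. Averaged over the 8 members, the centred values were -0.49, -1.03 and -0.02 in Fos-deficient specimens 6, 8 and 9, against 0.67, 0.65 and 0.22 in Fos-floxed specimens 2, 3 and 5. In specimen 9 Itga3 stood at 1.67, Lama5 at 0.25 and Itgb4 at 0.17. Col17a1, Itga6, Itgb1, Lama3 and Lamb3 lay between -0.89 and -0.12 there.

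By the same distance, 10644 other named genes were compared with the average of the members, Itga3 included. The 6 nearest were Ubash3b, Myo5b, Nqo1, Nrxn2, Dip2b and Arnt, at distances of 0.110 to 0.143. Ubash3b is a phosphatase of signalling receptors, Myo5b a myosin motor, Nqo1 a quinone reductase and Arnt a partner of the dioxin receptor. The differences of the 6 genes lay between -1.17 for Myo5b and -0.92 for Nrxn2. The mean difference of the members was -1.03, so genes picked as nearest to their average were bound to differ by about as much. None of the 6 had a limma adjusted p under 0.05. Nearest to Itga3, a comparison added after its values were seen, were Tnk2, Mmp14, Rab1b and Rps6ka4, at distances of 0.265 to 0.283. All points share the 6 specimens, the arrays and the reference RNA.

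**Figure D5:**
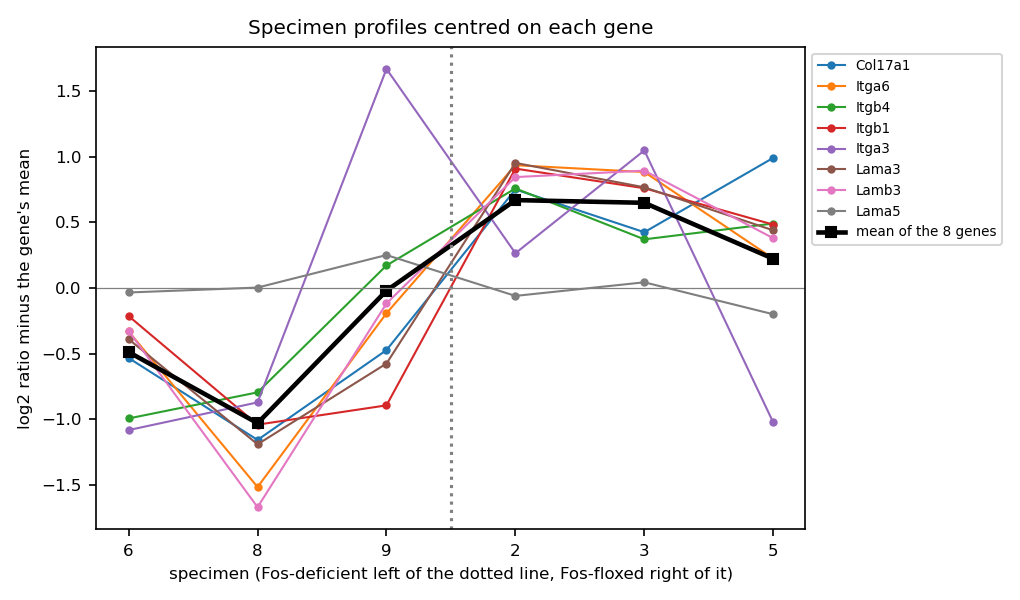
Log2 ratio of each gene minus its mean over the 6 specimens, with Fos-deficient specimens 6, 8 and 9 left of the dotted line and Fos-floxed specimens 2, 3 and 5 right of it. Thin lines are the 8 genes and the black line is their average, which is lowest in specimen 8 at -1.03. Itga3 crosses the others, from -1.08 in specimen 6 to 1.67 in specimen 9.

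Markers of keratinocytes, skin appendages and other cells were set beside these results. Among 13 keratinocyte genes 2 were lower and 0 higher at an unadjusted p under 0.05 in limma, beside 7.31% and 4.55% of all features. The 2 were Dsg3, a desmosomal cadherin, at -1.23 and Trp63, the regulator of basal keratinocytes, at -0.41. The mean log2 ratio of 6 complete hair follicle genes lay between 0.127 and 1.68 in Fos-deficient and between -0.221 and -0.0574 in Fos-floxed specimens, with 7 of 7 tested genes above 0. For 5 sebaceous genes it was 0.935 to 1.46 in Fos-deficient papillomas, against 0.549 to 0.927 in Fos-floxed papillomas. Of 7 tested sebaceous genes 4 differed by more than 0 and 3 by less, Fasn by -0.82, Plin2 by -0.48 and Fabp5 by -0.47. Endothelial cells also make Itga6, Itgb1 and Lama5, and 9 endothelial genes had means of 2.03 to 3.01 in Fos-deficient papillomas, against 2.52 to 3.00 in Fos-floxed papillomas, lowest in specimen 8. Schwann cells, which make Itga6 and Itgb4, were followed by 5 genes, with means of 0.688 to 1.32 in Fos-deficient papillomas, against 0.423 to 0.710 in Fos-floxed papillomas. Means of 7 fibroblast genes lay between -0.305 and 0.0853 in Fos-deficient and between -0.436 and 0.0231 in Fos-floxed specimens. The 7 smooth muscle and pericyte genes had means of -0.758 to -0.00493 in Fos-deficient papillomas, against -0.525 to -0.305 in Fos-floxed papillomas. The 8 leukocyte genes had means of -1.31 to -0.821 in Fos-deficient papillomas, against -1.24 to -1.08 in Fos-floxed papillomas. At an unadjusted p under 0.05 in limma, 2 of 7 hair follicle and 3 of 7 sebaceous genes tested were higher in Fos-deficient papillomas. So were 2 of 5 Schwann cell and 2 of 8 fibroblast genes, beside 4.55% of all features. Differences were below 0 for 2 of 8 fibroblast genes, Fbln1 the furthest at -1.29, and for 1 of 5 Schwann cell genes, Cdh19 at -0.39. Genes without a value in every specimen are in these counts and not in the means. No gene of the endothelial, smooth muscle and leukocyte lists passed. The part of these cells in the differences was not tested.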

How the data were processed

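Papilloma RNA and a pooled cell line reference were amplified with T7 polymerase and co-hybridised on 2-colour arrays, per the labels' protocols. The deposited values are log ratios, taken as log2, 1 per probe and array. How the authors normalized them, corrected background and chose the log base is stated by no label or header used here. Maxima of 7.34 exclude base 10. Spot signals were not analysed here, so it is not known which probes were near background, and the number of arrays limits the precision.

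Platform symbols were updated through RefSeq (GRCm38.p6): 20879 probes had 1 symbol and 16753 none. Of 16964 symbols, 12801 were current, 4006 were updated and 157 kept. Probes of a gene measured in all specimens were averaged; otherwise the probe with values in the most specimens stood for the gene. Both arrays of a specimen were averaged, and a feature needed 2 specimens per group, or 1 where a specimen was left out. The 18861 features were tested with limma 3.58.1 (statmod 1.5.0, R 4.3.3), lmFit and eBayes, two-sided, with Benjamini-Hochberg adjustment, after a test on simulated data. Named genes are the 8 members, Fos, the hemidesmosome partners, of each other list the 4 genes with the smallest unadjusted p, and the 6 nearest profiles. The cell type lists were described by their means, and the genes named from them were chosen after their values were seen. Members and lists were chosen with earlier results of these data known. The specimens were separate animals, and the 2 arrays of each counted as 1 replicate. Python 3.11.15, pandas 2.3.3 and matplotlib 3.10.9 made tables and figures.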

Additional observations from a re-analysis of the deposited data

How the results depend on the processing

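Over 16 alternatives, Col17a1, Itga6, Itgb4, Itgb1, Lama3 and Lamb3 stayed below 0 and Lama5 above 0. The alternatives were array centring, quantile normalization, filters, probes as features and each dye orientation. Others were a random block, trended and robust eBayes, array weights and each specimen left out. Each of these genes had 1 probe with values on all 12 arrays. The filters, probes as features, random block and eBayes settings therefore gave each the same difference as the main fit. Leaving out a specimen cannot turn the sign of the 6 genes without overlap. The count of features called by limma was 1, an unnamed probe, with the papilloma in Cy3 alone. It was 397 of 18861 with all 12 arrays and the specimen as a random block, and 0 in the other alternatives. In the block fit 5 of the 8 members were lower at an unadjusted p under 0.05 in limma, beside 9.12% of features. That block fit counts the 12 arrays in part as replicates, and in it Itgb1 (-1.43, adjusted p 0.00771), Lama3 (-1.44, adjusted p 0.0382) and Itga6 (-1.36, adjusted p 0.0466) passed. So did Mmp3 (-1.46, adjusted p 0.0110) and Mmp10 (-2.09, adjusted p 0.0173), whose limma adjusted p reached 0.665 and 0.678 in other alternatives. Over these alternatives the limma adjusted p ranged from 0.00771 to 0.665 for Itgb1, from 0.0382 to 0.665 for Lama3 and from 0.0466 to 0.750 for Itga6. Leaving out 1 specimen gave 3 (without Fos-floxed specimen 2) to 6 members lower at an unadjusted p under 0.05 in limma. The share of all features lower ran from 4.17% (without Fos-floxed specimen 2) to 10.8% (without Fos-deficient specimen 9). With 1 specimen left out, the median difference of the members was -1.53 to -0.95 (-0.95 without Fos-deficient specimen 8), and Itga3 lay between -1.07 and 0.30. The 6 members without overlap stayed so each time, which leaving out a specimen cannot change. Among genes of the related lists, Erbin changed sign with specimen values from 1 or 2 arrays (-0.040), in Cy3 alone (-0.057), with array weights (-0.056) and between -0.31 and 0.28 when 1 specimen was left out, Dst was 0.013 with array weights, and Cd151 ranged from -0.011 to 1.29. The dependence on dye, when 1 specimen was left out, crossed 0 for Itga6 (-0.095 to 0.12), Itgb1 (-0.0034 to 0.095), Lamb3 (-0.22 to 0.30) and Lama5 (-0.22 to 0.029), and for Col17a1 and Itgb4 ran from 0.88 to 1.99 and from 0.45 to 1.52. The cause of these changes was not tested. No paired analysis was possible because the specimens of the 2 groups share no numbers. The table gives no signal over background, so a limit from dim spots could not be set.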
